A study of Mus musculus with 12 samples.

Results

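A set of 10 genes of prostaglandin synthesis and signalling was followed in mouse hearts: Ptgds, Ptgs1, Ptgs2, Ptges, Ptgis, Ptger3, Ptger4, Ptgfr, Hpgd and Pla2g4a. They were taken as every transcript probe of the array that carried one of these 10 names or an older synonym, which gave 18 of 41174 probes. At least 1 probe was bright enough to be measured for 9 of the 10 genes, among 18257 genes measured in all. RNA came from whole hearts of male C57BL/6 mice in 4 groups of 3. The cardioGRMRdKO mice, called knockout here, were studied at 2 months and at 1 month of age and carry floxed alleles of Nr3c1 (the glucocorticoid receptor, GR) and of Nr3c2 (the mineralocorticoid receptor, MR), together with αMHC-Cre, a recombinase driven by a promoter of cardiomyocytes. The dflox mice of the same 2 ages are their littermates, which carry the same floxed alleles and have no Cre. No group had Cre without floxed alleles, so loss of the receptors and the presence of Cre cannot be told apart, and cells of the heart other than cardiomyocytes keep both genes. The series' description gives numbers of mice, and each array is taken as 1 animal.

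Prostaglandins are made on demand. A phospholipase A2 frees arachidonic acid from membranes, a cyclooxygenase turns it into prostaglandin H2, and a terminal synthase makes a single prostanoid from that intermediate, which leaves the cell, acts on a receptor of its own and is then oxidised. Glucocorticoids are known for damping this pathway in inflammation through the phospholipase and the inducible cyclooxygenase, whereas in rodent cardiomyocytes they are also known to induce the prostaglandin D synthase encoded by Ptgds.

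Levels below are log2 processed intensities relative to the array's own 75th percentile of transcript signal, so that 0 is the level of a spot at that percentile and a step of 1 unit is a 2-fold change of signal. Each gene stands on its brightest measured probe, and levels of different probes are not set against each other. A difference is the knockout mean minus the dflox mean, and a gene was called at an adjusted p under 0.05 (limma, Benjamini-Hochberg over all 18257 genes). The share of transcript spots well above background was 63.7% to 71.9% per array, and the number of hearts limits the precision. The arrays filled 3 slides of 4 places. At 1 month every knockout array had an inner place and every dflox array an outer one, so the effects of place and of genotype cannot be told apart there. All 8 cardiomyocyte markers were measured, with a mean level (over the 6 with a value on every array) of 6.24 to 6.66 in knockout against 6.64 to 6.70 in dflox hearts at 2 months, and of 6.38 to 6.58 in knockout against 6.63 to 6.68 in dflox hearts at 1 month. Nr3c1 was 1.44, 1.15 and 1.18 in knockout hearts against 2.51, 2.18 and 2.39 in dflox hearts at 2 months. At 1 month it had usable spots in 2 hearts per genotype, 1.35 and 1.51 in knockout against 2.27 and 2.05 in dflox hearts. Averaged over both ages it fell 1.89-fold (log2 difference −0.92, adjusted p = 0.00231). Nr3c2, which was dim, was −3.66, −3.03 and −4.48 in knockout against −4.49, −2.69 and −2.64 in dflox hearts at 2 months and −2.91, −3.76 and −3.65 in knockout against −3.43, −3.46 and −3.61 in dflox hearts at 1 month, and its averaged difference was −0.20 (adjusted p = 0.807). The labels do not state which exons Cre removes, so a probe outside them would not report the deletion.

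Of the 9 measured genes, 2 were called lower in knockout hearts when both ages were averaged. These were Ptgds, the synthase of prostaglandin D2, by 2.47-fold, and Ptgfr, the receptor of prostaglandin F2α, by 2.18-fold. No member was called higher. Among members, the measured cyclooxygenase, phospholipase, prostacyclin synthase, prostaglandin E receptor and breakdown genes did not pass the test in any comparison. Of the 18 probes 12 were bright enough; the 6 that were not were both probes of Ptgs2, 2 of the 3 of Ptger3, and 1 each of Ptger4 and Hpgd. Of all genes tested, 4.5% were called in the averaged comparison and 2.25% were called lower. The members were chosen with earlier results of these data known, so these shares give no test of the set. No member was called at 2 months alone, where 2.31% of all genes were, or at 1 month alone, where 0.98% were (limma). At an unadjusted p under 0.05 the members counted at each age were 2 of 9, Ptgds and Ptgfr, where 15.6% of all genes were counted at 2 months and 9.4% at 1 month.

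**Figure D1:**
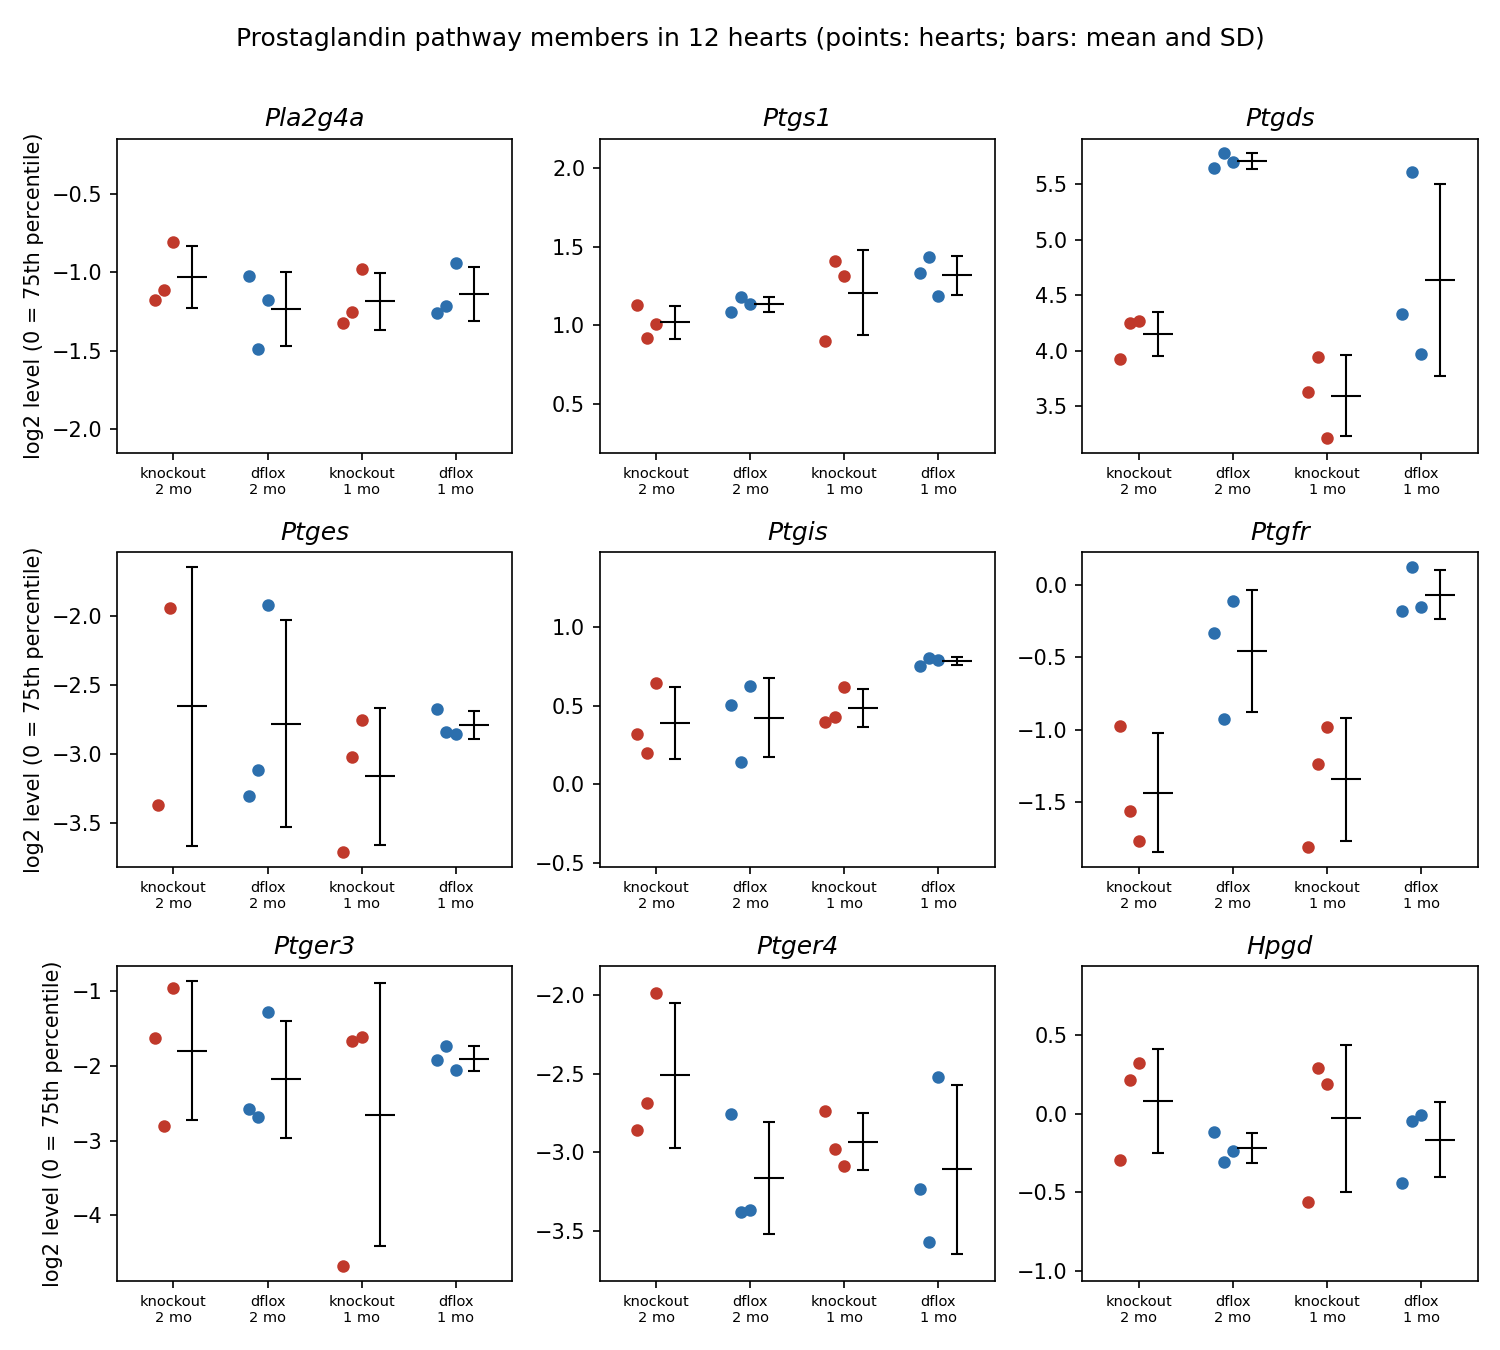
Log2 level of the 9 measured members in each of the 12 hearts, on a scale where 0 is the array's 75th percentile. Points are hearts (knockout in red, dflox in blue; 2 months on the left of each panel, 1 month on the right) and bars give the mean and SD. Every knockout heart lies below every dflox heart of its age for Ptgds and for Ptgfr, and for Ptgis at 1 month.

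Ptgds encodes lipocalin-type prostaglandin D synthase, a secreted enzyme that converts prostaglandin H2 to prostaglandin D2 and also carries lipophilic molecules. It was read by 1 probe, at chromosome 2, 25474633 to 25475164 on the minus strand (mm7, as the file headers give it). The probe is 60 bases long and its coordinates span 532 bases of genome, so it lies across a gap in the genome; the exon structure of that build was not used here. The deposited probe sequence is shown because every Ptgds value rests on it.
Ptgds probe: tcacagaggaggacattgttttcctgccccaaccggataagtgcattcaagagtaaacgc

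At 2 months Ptgds stood at 3.93, 4.25 and 4.27 in the knockout hearts and at 5.65, 5.79 and 5.70 in the dflox hearts. The groups were tight and far apart, with means of 4.15 ± 0.195 in knockout and 5.71 ± 0.0695 in dflox hearts (SD, n = 3 each). The difference of −1.56 (SE 0.355), a 2.95-fold lower level, stood just outside the threshold (adjusted p = 0.0532). At 1 month the values were 3.63, 3.94 and 3.21 in knockout hearts and 4.33, 5.61 and 3.97 in dflox hearts. These groups did not overlap either, but by a narrow margin, since knockout replicate 2 and dflox replicate 3 nearly met. dflox replicate 2 stood apart from its group and close to the dflox hearts of 2 months. The 1-month difference was −1.04 (SE 0.355, adjusted p = 0.313), and without that heart it was −0.56. Averaged over the ages Ptgds fell by 1.30 on the log2 scale (SE 0.251, 95% interval −1.86 to −0.74, adjusted p = 0.0153), with all 6 knockout hearts below the dflox hearts of their age. Over the 12 fits that left out 1 heart, the averaged difference ran from −1.47 to −1.06 and each stayed called.

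The order of the Ptgds group means was dflox at 2 months, dflox at 1 month, knockout at 2 months and knockout at 1 month. The 2-month dflox hearts lay above all others. The 1-month dflox hearts overlapped the 2-month knockout hearts, and these overlapped the 1-month knockout hearts. Between 2 months and 1 month Ptgds differed by 0.56 in knockout hearts (adjusted p = 0.601) and by 1.07 in dflox hearts (adjusted p = 0.214), and neither passed. The genotype difference at 2 months minus that at 1 month was −0.52 (SE 0.502, adjusted p = 0.934). Leaving out dflox 1-month replicate 2 alone changed 2 of these statements: the 2-month genotype difference then passed (−1.56, adjusted p = 0.00455), and so did the age difference in dflox hearts (1.56, adjusted p = 0.0255). Leaving out dflox 1-month replicate 3 also brought the 2-month difference under the threshold (adjusted p = 0.0339). In both fits the 2-month difference stayed at −1.56, and its SE fell from 0.355 to 0.191 without replicate 2 and to 0.303 without replicate 3. With any other single heart left out, the 2-month difference was not called (adjusted p = 0.0718 to 0.161).

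Ptgfr encodes the FP receptor, a receptor of the Gq-coupled kind that binds prostaglandin F2α, which is known as a growth stimulus for cultured rodent cardiomyocytes. Both of its probes measured it, on chromosome 3 at 151701401 to 151701460 and at 151697688 to 151697747, both on the minus strand (mm7). The first 30 bases of each are shown because the result can be read on separate stretches of the gene.
Ptgfr brighter probe: tgtccttgagtagaacacacatttgagttt
Ptgfr dimmer probe: ctgttttctatggtcagaatataaagactg

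On the brighter probe Ptgfr was −0.98, −1.56 and −1.77 in knockout hearts and −0.33, −0.93 and −0.11 in dflox hearts at 2 months. The groups did not overlap, although knockout replicate 1 and dflox replicate 2 nearly met. At 1 month it was −1.81, −1.24 and −0.98 in knockout hearts and −0.18, 0.13 and −0.15 in dflox hearts, where the gap between the groups was wider. The difference was −0.98 at 2 months (SE 0.279, adjusted p = 0.125) and −1.27 at 1 month (SE 0.279, adjusted p = 0.0755), neither of which passed. Averaged over the ages Ptgfr fell by 1.13 on the log2 scale (SE 0.197, 95% interval −1.56 to −0.69, adjusted p = 0.00911). The dimmer probe gave −3.21, −3.39 and −3.57 in knockout hearts against −2.33, −3.11 and −2.16 in dflox hearts at 2 months. At 1 month it gave −4.00, −3.30 and −3.04 in knockout hearts against −2.46, −2.22 and −2.17 in dflox hearts. Its groups did not overlap at either age, and when each probe was tested on its own its averaged difference was −1.01 (SE 0.198, adjusted p = 0.0175). Between 2 months and 1 month Ptgfr differed by −0.09 in knockout hearts and by −0.39 in dflox hearts, and the genotype differences at the 2 ages differed from each other by 0.29 (SE 0.395, adjusted p = 0.934).

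Both falls were set against the layout of the arrays. Within slide 1 the Ptgds difference was −1.37 at 2 months and −0.39 at 1 month, within slide 3 it was −1.49 at 2 months, and within slide 2 it was −1.58 at 1 month. The Ptgfr difference was −1.44 at 2 months and −1.06 at 1 month within slide 1, −1.04 at 2 months within slide 3, and −0.97 at 1 month within slide 2. The sign of these differences was fixed beforehand, since the genotypes of an age did not overlap for either gene. Each sets 1 knockout array against 1 or 2 dflox arrays, so only their size can be read. With slide as a fixed term both stayed called in the averaged comparison (adjusted p = 0.0275 for Ptgds and 0.00534 for Ptgfr). With a term for place on the slide neither did. The Ptgds difference was then −1.21 (SE 0.372, adjusted p = 0.217) and that of Ptgfr −1.36 (SE 0.274, adjusted p = 0.052). Without that term the SEs were 0.251 and 0.197. Since place followed genotype at 1 month, the term was set by the 2-month arrays alone. When slide 3 was left out, so that only 1 dflox heart remained at 2 months, the averaged differences were −1.30 for Ptgds (adjusted p = 0.249) and −1.04 for Ptgfr (adjusted p = 0.0765).

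**Figure D2:**
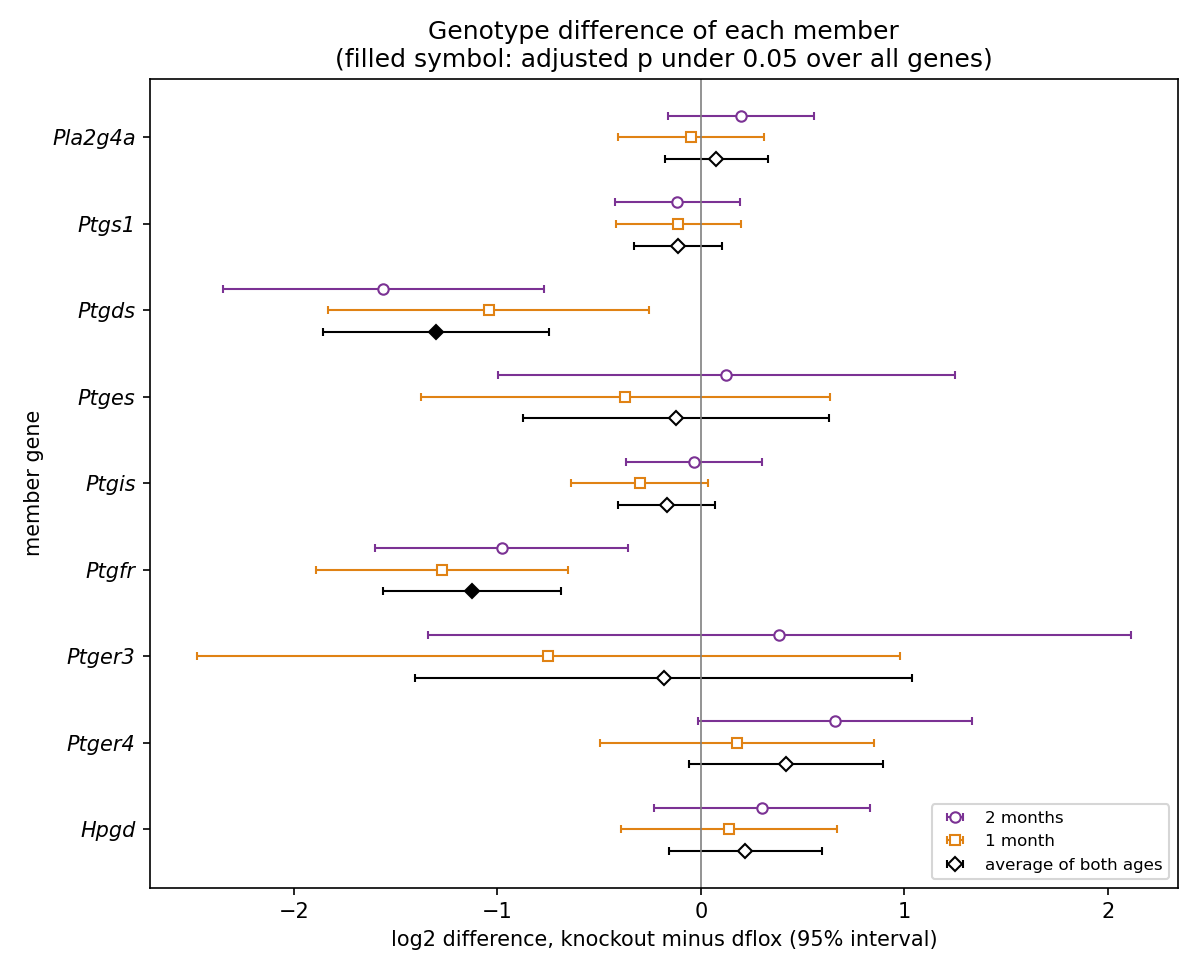
Log2 difference between knockout and dflox hearts for each measured member at 2 months, at 1 month and averaged over both ages. Bars are 95% intervals from limma (n = 3 hearts per group, but 2 for Ptges in knockout hearts at 2 months). Filled symbols mark an adjusted p under 0.05. The averaged differences of Ptgds (−1.30) and Ptgfr (−1.13) are filled, and the averaged intervals of the other 7 members include 0.

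Marker lists of cell types of the heart and of tissues outside it were read beside these results. Of their markers, 1 cardiomyocyte gene and 1 gene of smooth muscle and pericytes were called in a genotype comparison, and those of the other 16 lists were not. In whole hearts, fewer cells of a type and less RNA per cell cannot be told apart. By the mean of its markers in each heart, of 18 lists 1 was higher and 1 lower without overlap between the genotypes at 2 months, and at 1 month 1 was higher and 7 were lower. The list that was higher at both ages was that of macrophages, and the one lower at 2 months was that of mast cells. At 1 month the mean of the airway epithelium markers was −3.47 to −1.46 in knockout hearts against 1.23 to 2.29 in dflox hearts (over 10 of the 11 markers, those with a value on every array), while at 2 months both groups spread widely, from −3.27 to 2.43 in knockout and from −3.08 to 2.89 in dflox hearts. With the airway mean as a covariate the averaged difference was −1.31 for Ptgds (adjusted p = 0.0467) and −1.04 for Ptgfr (adjusted p = 0.0385). In that fit the 1-month difference was −1.06 for Ptgds (SE 0.492, adjusted p = 0.792) and −1.05 for Ptgfr (SE 0.369, adjusted p = 0.585). Without the covariate these SEs were 0.355 and 0.279. The other lists that were lower at 1 month were those of cardiomyocytes, cartilage, endocardium, epicardium, fibroblasts, and smooth muscle and pericytes, and their part in the 1-month values was not tested. Leptomeninges, a tissue outside the heart that is rich in Ptgds RNA, had all 4 markers measured. Over the 3 with a value on every array their mean at 2 months was −3.57 to −2.90 in knockout hearts, against −3.29 to −2.78 in dflox hearts. At 1 month it was −3.42 to −3.10 in knockout hearts, against −3.11 to −2.81 in dflox hearts. The differences of all 4 markers were below 0 at each age with none called (median −0.30 at 2 months and −0.20 at 1 month). Whether the samples held any of this tissue was not tested, nor was its part in the Ptgds result.

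The measured members that begin the pathway did not pass the test. Pla2g4a, the cytosolic phospholipase A2 that frees arachidonic acid, was read on chromosome 1 at 149755624 to 149755683 (minus strand; all probe positions here are in mm7). It was −1.18, −1.11 and −0.81 in knockout against −1.03, −1.49 and −1.18 in dflox hearts at 2 months, and −1.32, −1.26 and −0.98 in knockout against −1.26, −1.21 and −0.94 in dflox hearts at 1 month. The groups overlapped at both ages, and the averaged difference was 0.08 (95% interval −0.18 to 0.33, adjusted p = 0.768). A second Pla2g4a probe, whose coordinates span 10485 bases of genome, gave 0.05 (adjusted p = 0.889). Ptgs1, the constitutive cyclooxygenase, was read on chromosome 2 at 36257684 to 36257743 (plus strand). It was 1.13, 0.92 and 1.01 in knockout against 1.09, 1.18 and 1.14 in dflox hearts at 2 months. At 1 month Ptgs1 was 0.90, 1.41 and 1.31 in knockout against 1.34, 1.43 and 1.19 in dflox hearts. Its groups overlapped at both ages. The averaged difference was −0.11, with a 95% interval from −0.33 to 0.10 that leaves out a change of 2-fold either way (adjusted p = 0.590).

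Ptgs2, the inducible cyclooxygenase, could not be measured in these hearts. Its first probe, on chromosome 1 at 150033228 to 150033287 (plus strand) and printed at 10 spots, was well above background on 5 of 12 arrays, with a median level of −5.74, and its second on 3 of 12 arrays, with a median of −6.01. No group had all 3 arrays above background on either probe, so no difference is given for Ptgs2, and a change in it was not detectable at this signal.

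Of the other terminal synthases, Ptgis, which makes prostacyclin, was read on chromosome 2 at 166947459 to 166947518 (minus strand). It was 0.32, 0.20 and 0.65 in knockout against 0.50, 0.14 and 0.62 in dflox hearts at 2 months, where the groups overlapped. At 1 month Ptgis was 0.40, 0.43 and 0.62 in knockout against 0.75, 0.80 and 0.79 in dflox hearts. There every knockout heart was lower, but the difference of −0.30 was not called (SE 0.151, adjusted p = 0.629), and the 2-month difference was −0.03. Ptges, the inducible synthase of prostaglandin E2, was dim and scattered on its probe on chromosome 2 at 30899629 to 30899688 (minus strand). It had 2 usable knockout hearts at 2 months, at −3.37 and −1.94, since the spot of replicate 1 was marked as an outlier and left out, against −3.30, −3.12 and −1.92 in dflox hearts. At 1 month it was −3.71, −3.02 and −2.75 in knockout hearts, against −2.68, −2.84 and −2.86 in dflox hearts. The groups overlapped at both ages. Its averaged difference was −0.12 with a 95% interval from −0.88 to 0.63 (adjusted p = 0.878).

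Ptgds, Ptgfr and Ptgis were the members whose genotypes did not overlap at 1 month, and Ptgds and Ptgfr those at 2 months, in each case with the knockout hearts lower. Among all genes with a value on every array the groups did not overlap in 18.6% at 1 month and 17.5% at 2 months.

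The measured receptor genes of prostaglandin E2 did not pass the test. Ptger4, the Gs-coupled EP4 receptor gene, was read on chromosome 15 at 5059293 to 5059352 (minus strand). It was −2.86, −2.68 and −1.99 in knockout against −2.76, −3.38 and −3.37 in dflox hearts at 2 months. Its groups overlapped through knockout replicate 1, and the difference of 0.66 did not pass (SE 0.303, adjusted p = 0.330). At 1 month Ptger4 was −2.74, −2.98 and −3.09 in knockout against −3.24, −3.57 and −2.52 in dflox hearts, a difference of 0.18, and the averaged difference was 0.42 (adjusted p = 0.348). Ptger3, the Gi-coupled EP3 receptor gene, was read on chromosome 3 at 157552710 to 157552769 (plus strand). It spread over 3.72 log2 units across the 12 hearts, the widest range of the 9 measured members. It was −1.62, −2.80 and −0.96 in knockout against −2.57, −2.69 and −1.28 in dflox hearts at 2 months, and −4.68, −1.67 and −1.61 in knockout against −1.93, −1.73 and −2.05 in dflox hearts at 1 month. The groups overlapped, and the averaged difference was −0.18 with an SE of 0.550 (adjusted p = 0.893).

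The spread of Ptger3 ran beside that of the adipocyte markers, of which 5 of 6 were measured. Their mean level was −0.02 in knockout 1-month replicate 1, the heart with the lowest Ptger3, 0.67 in knockout 2-month replicate 2 and 0.92 in dflox 2-month replicate 2, which came next on both measures. In the other 9 hearts it lay between 2.25 and 3.49. Ptger3 is known as a gene of adipocytes; the part of fat in its values was not tested. These 3 hearts lay on slide 3, and without the 4 arrays of that slide the averaged Ptger3 difference was 0.77 in place of −0.18 (adjusted p = 0.120).

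**Figure D3:**
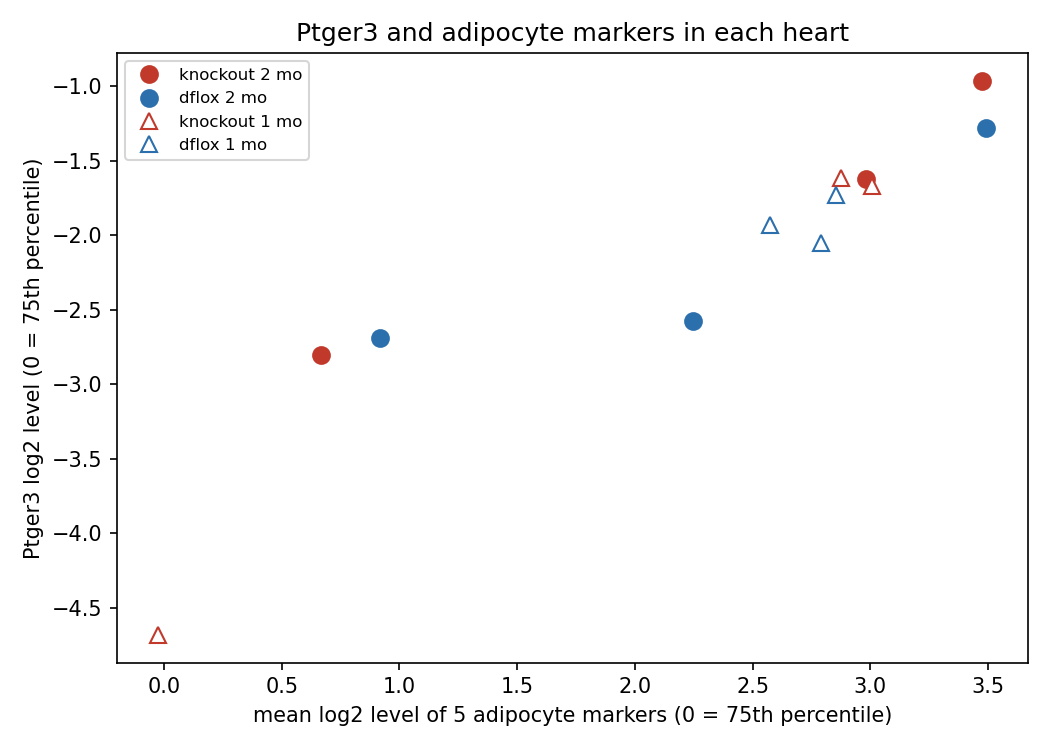
Ptger3 log2 level against the mean log2 level of 5 adipocyte markers, 1 point per heart (red knockout, blue dflox; filled circles 2 months, open triangles 1 month). The heart at the lower left, knockout 1-month replicate 1, has the lowest value on both axes (Ptger3 −4.68, adipocyte mean −0.02), and 9 hearts lie above 2 on the horizontal axis.

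Hpgd, the dehydrogenase that inactivates prostaglandins, was read on chromosome 8 at 54721339 to 54721398 (plus strand). It was −0.30, 0.21 and 0.32 in knockout against −0.12, −0.30 and −0.24 in dflox hearts at 2 months, and −0.56, 0.29 and 0.19 in knockout against −0.44, −0.05 and −0.01 in dflox hearts at 1 month. Replicate 1 of each knockout group was low and the other knockout hearts were above all dflox hearts of their age, so the groups overlapped. The averaged difference was 0.22 (SE 0.169, adjusted p = 0.541) on this probe and 0.32 (SE 0.174, adjusted p = 0.383) on a second one.

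Over the 9 measured members, the averaged difference was above 0 in 3 and below 0 in 6, with a median of −0.12. Over all genes tested 38.9% were above 0 and the median was −0.06. Between 2 months and 1 month the 7 members other than Ptgds and Ptgfr differed by −0.19 to 0.86 in knockout hearts and by −0.36 to 0.01 in dflox hearts. No member was called for age in knockout hearts, where 0.378% of all genes were, or in dflox hearts, where 0.553% were. At an unadjusted p under 0.05 there were 0 of 9 members in knockout hearts, against 12.4% of all genes, and 2 of 9, Ptgds and Ptgis, in dflox hearts, against 14.1% of all genes. The lowest adjusted p among the 7 was 0.656 in knockout and 0.321 in dflox hearts. The test of whether the genotype difference changed with age called 0 of 18257 genes in limma, of which 644 (3.53%), with 0 members among them, had an unadjusted p under 0.05.

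The rest of the pathway was read from 39 further genes chosen by role, of which 33 were measured. In the averaged comparison 2 of the 33 were called higher and 1 lower, beside the 4.5% called among all genes. Of the 33, 19 were above 0 and 14 below, with a median of 0.03. None was called at a single age by limma, where 6 of the 33 at 2 months and 5 of the 33 at 1 month had an unadjusted p under 0.05, beside 15.6% and 9.4% of all genes at these ages. Pla2g10, the receptor genes Ptger1 and Ptgdr, Alox15 and Cysltr2 had no probe that passed the filter, and Ptgr3 was matched to no probe. Ptgdr encodes DP1, a receptor of prostaglandin D2.

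Alox5, the 5-lipoxygenase that opens the leukotriene branch, rose 1.83-fold on average (log2 difference 0.87, SE 0.161, adjusted p = 0.0118). Its level was 3.05 to 3.13 in knockout against 2.00 to 2.28 in dflox hearts at 2 months, and 1.72 to 2.59 in knockout against 1.25 to 1.86 in dflox hearts at 1 month. The groups were apart at 2 months and overlapped at 1 month. Of the 8 lipoxygenase genes measured, Alox5 was the 1 that passed. Alox5 is known from white blood cells, and the differences of all 8 macrophage markers were above 0 at each age with none called (median 0.24 at 2 months and at 1 month). Their mean level was 1.33 to 1.55 in knockout and 1.14 to 1.21 in dflox hearts at 2 months, and 1.57 to 1.67 in knockout and 1.24 to 1.44 in dflox hearts at 1 month. Of the neutrophil markers 5 of 6 were measured, and none was called. Their differences were above 0 in 4 of 5 at 2 months (median 0.64) and in 5 of 5 at 1 month (median 0.86). Their mean level was −2.88 to −1.42 in knockout and −5.43 to −1.49 in dflox hearts at 2 months, and −4.38 to −0.83 in knockout and −4.59 to −3.59 in dflox hearts at 1 month, with overlap at both ages. The mast cell markers went the other way: 5 of 6 were measured, and none was called. Their differences were below 0 in 5 of 5 at 2 months (median −0.38) and in 5 of 5 at 1 month (median −0.19). The part of any of these cell types in the Alox5 rise was not tested.

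Pla2g12a, a secreted phospholipase A2, fell 1.35-fold (log2 difference −0.43, SE 0.0769, adjusted p = 0.0102). It stood at 1.77 ± 0.0189 in knockout and 2.10 ± 0.0236 in dflox hearts at 2 months and at 1.40 ± 0.205 in knockout and 1.93 ± 0.0707 in dflox hearts at 1 month (SD, n = 3 each), with no overlap. Prxl2b, a prostamide and prostaglandin F synthase, rose 1.33-fold (log2 difference 0.42, SE 0.0935, adjusted p = 0.0322). It stood at 6.13 ± 0.256 in knockout and 5.79 ± 0.0891 in dflox hearts at 2 months, where the groups overlapped through knockout replicate 3, and at 6.16 ± 0.0788 in knockout and 5.66 ± 0.108 in dflox hearts at 1 month (SD, n = 3 each), where they did not. The other 6 terminal synthases, the 4 measured receptors and the 5 measured genes of transport and breakdown did not pass. Alox5, Pla2g12a and Prxl2b were not followed singly with the term for place, without slide 3 or in the other alternative fits.

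**Figure D4:**
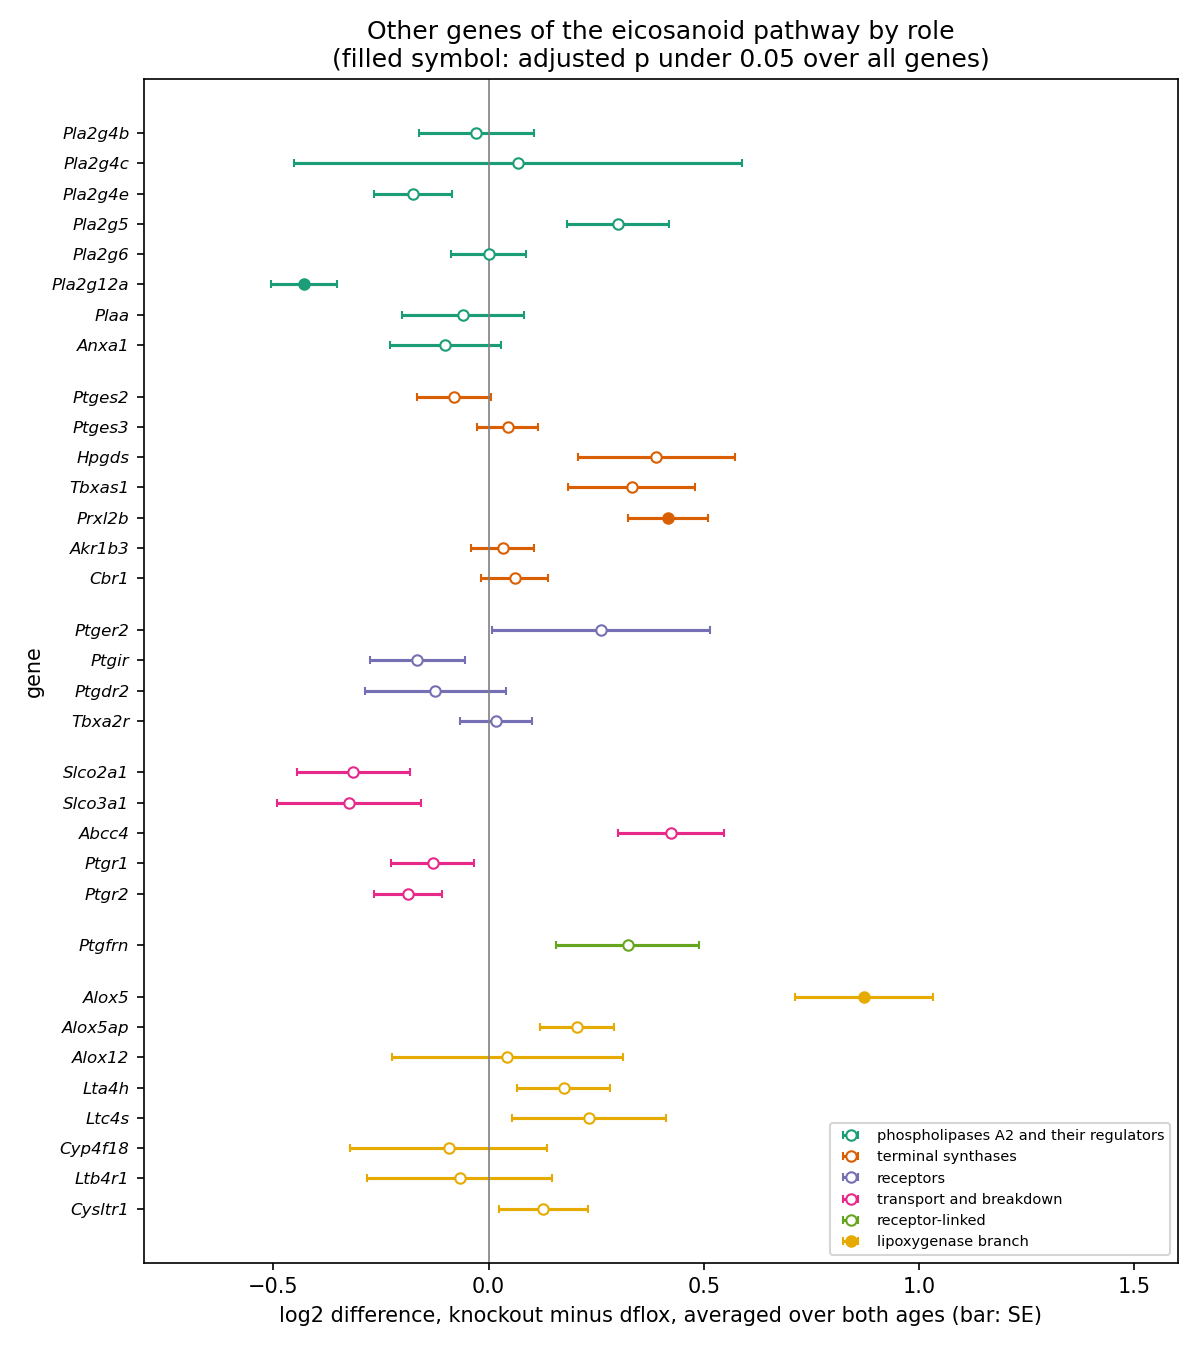
Log2 difference between knockout and dflox hearts, averaged over both ages, for the 33 measured further genes of the pathway, grouped by role (bars are SE from limma). Filled symbols mark the 3 called genes: Pla2g12a at −0.43, Prxl2b at 0.42 and Alox5 at 0.87.

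Across the 12 arrays, the genes whose level ran most like that of Ptgds, by Pearson correlation among 17779 genes, were Acsm5 (r = 0.94), Rxrg (r = 0.93), Galm (r = 0.93), Lingo3 (r = 0.93) and a transcript that the files give no gene name (r = 0.93). The arrays share genotype and age, and genes chosen for following Ptgds follow its genotype difference too, so their levels are a description with no test. Acsm5 averaged −5.03 ± 0.229 in knockout against −1.96 ± 0.151 in dflox hearts at 2 months (SD, n = 3 each). At 1 month Acsm5 was well above background on none of the 3 knockout arrays, so its values there are only bounds, and it averaged −3.65 ± 0.815 in dflox hearts. Rxrg, a retinoid X receptor gene, averaged 4.44 in knockout and 4.81 in dflox hearts at 2 months and 4.36 in knockout and 4.60 in dflox hearts at 1 month. Galm, which encodes galactose mutarotase, averaged −0.71 in knockout and −0.35 in dflox hearts at 2 months and −0.86 in knockout and −0.56 in dflox hearts at 1 month. Lingo3 averaged 0.63 in knockout and 1.25 in dflox hearts at 2 months and 0.36 in knockout and 0.81 in dflox hearts at 1 month. The unnamed transcript averaged −1.93 in knockout and −1.50 in dflox hearts at 2 months and −1.96 in knockout and −1.84 in dflox hearts at 1 month.

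The removed receptors bind DNA at paired copies of the half-site AGAACA, so the start-site regions of the members were read for it. RefSeq start-site windows of 300 bases (250 before the start and 50 after, GRCm38.p6) matched 9 members by symbol. The half-site, on either strand, was found in 19.0% of all 32851 such windows, and the paired form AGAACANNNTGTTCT in 0.00913%. No member held the paired form. Ptgs1, Ptges and 1 of the 2 Pla2g4a windows held 1 half-site each, and the windows of Ptgds and Ptgfr, the members that fell, held none. A match is not a binding site, and no match says only that these letters are absent from the window. The sequences of the members that fell are shown from 250 bases before the start, with the first 30 bases from the start on in capitals, on the minus strand at chr2:25469720-25469999 for Ptgds and chr3:151837499-151837778 for Ptgfr. For Ptgs1 and Ptges the stretch around the half-site, which is in capitals, is shown for comparison.
Ptgds start-site region: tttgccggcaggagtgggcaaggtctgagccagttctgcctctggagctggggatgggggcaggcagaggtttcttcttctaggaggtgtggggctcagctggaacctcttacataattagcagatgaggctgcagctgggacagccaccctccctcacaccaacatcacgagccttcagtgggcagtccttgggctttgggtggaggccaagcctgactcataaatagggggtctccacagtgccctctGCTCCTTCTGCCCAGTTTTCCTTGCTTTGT
Ptgfr start-site region: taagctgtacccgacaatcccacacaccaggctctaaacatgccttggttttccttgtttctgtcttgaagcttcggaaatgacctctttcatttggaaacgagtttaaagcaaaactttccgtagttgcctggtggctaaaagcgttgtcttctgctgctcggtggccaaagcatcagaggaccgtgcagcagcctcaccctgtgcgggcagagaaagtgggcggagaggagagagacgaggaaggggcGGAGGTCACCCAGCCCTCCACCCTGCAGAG
Ptgs1 half-site: ttccaccattTGTTCTgcctacaagc
Ptges half-site: ggctttcaaaAGAACAatggtcctga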

How the data were processed

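RNA of 12 whole hearts was hybridised to 1-colour Agilent arrays, 1 heart per array. The authors deposited, per the file headers, spot intensities from Agilent Feature Extraction 9.5.3.1 (9.5 per the labels), with the processed intensity background-subtracted and detrended within each array. The series' deposited values are the same processed intensities. Here the intensity was divided by the array's 75th percentile and put on the log2 scale. Spots marked as outliers were left out (67 to 241 per array), and spots of 1 probe were averaged. A probe was kept if some group had it well above background on each of its 3 arrays, and the brightest kept probe stood for its gene. The 4 group means over 12 arrays were fitted with limma 3.58.1 in R 4.3.3, and p-values were adjusted by Benjamini-Hochberg over all 18257 genes. The procedure was also run on simulated data with independent noise and no effect of slide, place or tissue. That run cannot bear on such effects. Each further pathway gene is named if called in a comparison, together with the 5 genes most like Ptgds. The members and lists were chosen with earlier results of these data known. Other scalings, filters, layout terms, the airway markers and each heart left out were tried as alternatives. The main fit did not pair hearts by replicate number, as the labels do not say what the number marks. Same-numbered hearts deviated together with a correlation above 0.1 in 5 of 18 pairs, and differently numbered hearts in 13 of 36. Probe positions are in mm7, and promoters come from RefSeq (GRCm38.p6).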

Additional observations from a re-analysis of the deposited data

How the results depend on the processing

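Of the alternatives to the 2 members called on the averaged comparison, place on the slide and the removal of slide 3 (added after seeing the data) left 0 called, and each heart left out left 2. At 2 months 1 member, Ptgds, was called in place of 0 under normexp, under the filter for probes above background on all 12 arrays, under a replicate block and when only the groups compared were fitted. At 1 month 1 member, Ptgfr, was called under normexp. With 1 heart left out, 0 to 1 members were called at 2 months and for age in dflox hearts. Counts over all genes moved more. At 2 months the 422 became 240 (normexp), 243 (no filter), 97 (only the groups compared) and 111 (without slide 3), and 240 to 389 with 1 heart left out. At 1 month the 179 became 113 (normexp), 93 (no filter), 9 (place) and 38 (airway), and 83 to 232. Averaged, the 821 became 490 (normexp), 518 (no filter), 257 (place) and 234 (without slide 3), and 508 to 802. The test of age and genotype together gave 1 gene with place and 136 without slide 3 in place of 0. For age in knockout hearts the 69 became 34 (normexp), 13 (no filter), 16 (place), 5 (airway), 31 (replicate block) and 0 (only the groups compared), and 4 to 62. For age in dflox hearts the 101 became 159 (quantile), 61 (normexp), 17 (no filter), 175 (all arrays above background), 10 (slide), 28 (place), 14 (airway), 0 (only the groups compared) and 26 (without slide 3), and 3 to 147. Signs turned in differences that were not called. At 2 months these were Ptger3 with slide (−0.10), Ptgis with place (0.011) and Ptges with the replicate block (−0.035). At 1 month they were Ptger4 under normexp (−0.014) and Pla2g4a with slide (0.027), then Ptges (0.69) and Ptger3 (0.17) with place, Ptges (0.49), Hpgd (−0.0011) and Pla2g4a (0.054) with the airway markers, and Ptgs1 (0.043), Ptger3 (0.27) and Pla2g4a (0.019) without slide 3. Averaged, they were Ptges (0.50) and Ptger3 (0.43) with place, Ptges (0.30) and Ptger3 (0.10) with the airway markers, and Ptgs1 (0.014), Ptges (0.63) and Ptger3 (0.77) without slide 3. Ptgfr turned for the change of the genotype difference with age (−0.12 with slide, −0.0022 without slide 3), for age in knockout hearts with place (0.021) and for age in dflox hearts with slide (0.024). With 1 heart left out, signs turned at 2 months for Ptges (−0.59 to 0.84), Ptgis (−0.17 to 0.067) and Ptger3 (−0.032 to 0.89), at 1 month for Ptgs1 (−0.21 to 0.043), Ptger3 (−1.27 to 0.27), Ptger4 (−0.055 to 0.47), Hpgd (−0.022 to 0.41) and Pla2g4a (−0.15 to 0.050), averaged for Ptges (−0.48 to 0.23) and Ptger3 (−0.44 to 0.33), and for age in knockout hearts for Ptgfr (−0.33 to 0.087). The cause of these changes was not tested. Ptgs2 was too dim to be measured.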
